A study of Mus musculus with 8 samples.

Results

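Trafficked maternal cells and recipient cells sorted from the same pups were compared after intrauterine transplantation (IUT) in mice. The members were the 6 libraries of IUT groups among the 8 libraries of the series, chosen by their labels. They form 3 pairs of a maternal and a recipient library. The question was which genes differ between the cells of the dam and those of her pup in the same way in each pair, and how far both share the receptor chains of T cells (TCR) and of B cells (BCR).

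All dams were C57BL/6 females with the CD11c-DTR transgene, which puts a diphtheria toxin (DT) receptor under the CD11c promoter, and all sires were BALB/c. The cells were mononuclear cells of F1 pups aged 1 week, harvested from the whole body. Bone marrow cells of C57BL/6 donors were injected on embryonic day 14 in mIUT and those of BALB/c donors in pIUT, after saline to the dam. In DT+pIUT the dam was given 5 ng/g DT on embryonic day 13, which depletes CD11c+ dendritic cells (DC) for a short time, and BALB/c cells were injected 1 day later. The uninjected pair came from pups of dams given DT or saline, with no IUT, and was used only for reference. Cells were magnetically and flow sorted, maternal cells by H2K-b and recipient cells by H2K-d. F1 cells carry both markers, mIUT donor cells carry H2K-b and pIUT donor cells carry H2K-d, so either gate could hold other cells. Pups of a treatment were pooled into 1 library of each origin. There are no replicate libraries of a treatment, and the 3 pairs, which differ in treatment, are the only repeats of the contrast.

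Maternal cells cross the placenta in small numbers and persist in the offspring as maternal microchimerism. Red cells mature through erythroblasts that make hemoglobin and heme, while mast cells, basophils and eosinophils are granulocytes with proteases and toxic proteins in their granules. Lymphocyte receptor chains are joined from V, D and J segments, and terminal transferase (Dntt) adds bases at the joins. Early in life this enzyme is scarce, so that many chains of newborn mice have few added bases and arise in many animals alike.

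The library totals lay between 38543457 and 47965130 estimated counts. Genes with at least 10 counts numbered 10016 in maternal and 13278 in recipient mIUT, 13009 and 14670 in pIUT, and 13266 and 16231 in DT+pIUT. In each IUT pair the maternal library thus held fewer genes at a like depth. Of genes with at least 10 CPM (counts scaled to the size of the library by TMM, so that libraries compare) in each of the other 7 libraries, 4.86% lay under 1 CPM in maternal mIUT, 0.758% in maternal pIUT and 1.26% in maternal DT+pIUT. In the recipient IUT libraries this share was at most 0.144%, and in recipient uninjected cells it was 9.51%. Where a gene is at 0 in a maternal library below, these values stand beside it, and their part in the result was not tested.

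The labels were checked first. The maternal libraries should hold cells of a female, yet Eif2s3y, a Y-linked translation factor gene, was read at 77.2 CPM in maternal against 72.9 CPM in recipient mIUT. In pIUT its level was 14.9 CPM in maternal against 28.9 CPM in recipient cells, and in DT+pIUT it was 20.05 and 10.5 CPM. Maternal uninjected cells had 0 and recipient uninjected cells 0.124 CPM. The maternal and recipient ranges of Eif2s3y thus overlapped in the IUT pairs. Uty, also Y-linked, was read at 40.9, 6.33 and 1.18 CPM in maternal against 13.8, 5.93 and 4.12 CPM in recipient mIUT, pIUT and DT+pIUT, and at 64.6 CPM in recipient and 0 in maternal uninjected cells. Ddx3y had 0, 8.07 and 8.72 CPM in maternal against 29.2, 20.7 and 8.67 CPM in recipient cells, and 0 in both uninjected libraries. Kdm5d, another gene of the Y chromosome, was at 0 in all 4 maternal libraries and at 1.33, 1.88 and 2.70 CPM in the 3 recipient IUT libraries. Xist, the RNA of the inactive X chromosome, lay at 12.5 CPM in maternal against 5.82 CPM in recipient mIUT, at 4.07 and 8.37 CPM in pIUT, and at 11.6 and 12.003 CPM in DT+pIUT.

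H2-Ea, an MHC class II gene that C57BL/6 cells do not transcribe and BALB/c cells do, was read at 8.03 CPM in maternal mIUT, 0 in maternal pIUT and 5.39 CPM in maternal DT+pIUT. Recipient cells had 11.8, 60.4 and 68.4 CPM. H2-K1, the gene of the H2K antigen, had 541 CPM in maternal against 469 CPM in recipient mIUT, 223 and 568 CPM in pIUT, and 128 and 454 CPM in DT+pIUT. Ptprc, which encodes the leukocyte antigen CD45, had 163, 70.2 and 2.63 CPM in maternal mIUT, pIUT and DT+pIUT, and 459, 227 and 168 CPM in the recipient libraries. Itgax, which encodes CD11c, had 0, 12.1 and 0.0303 CPM in maternal cells and 2.55, 8.13 and 13.2 CPM in recipient cells. The 3 maternal IUT libraries therefore hold Y-linked reads that a pure maternal sort would not give, and "maternal" below means the library labelled so. Each maternal IUT library has such reads, so no result can be given without them, and their part in the results was not tested. In bulk RNA, fewer cells of a type and less RNA per cell cannot be told apart.

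No gene passed the test of maternal against recipient cells over the 3 pairs. With edgeR's quasi-likelihood test, treatment as a block and 2 residual degrees of freedom, 0 of 14248 genes (0%) were called in either direction at an adjusted p under 0.05, and the smallest adjusted p was 0.836. At an unadjusted p under 0.05 there were 135 genes higher in maternal and 659 higher in recipient cells. The biological coefficient of variation between pairs was 1.18. DESeq2's Wald test on the same genes called 187 (1.31%) as higher in maternal and 850 (5.97%) as higher in recipient cells, and limma-voom called 0. When genes were required to have at least 10 counts in all 6 libraries, which removes genes absent from any of them, edgeR tested 7514 genes and called 15 as higher in maternal cells and 1, Acap1, as higher in recipient cells. Those 15 were the mitochondrial genes mt-Nd1, mt-Nd2, mt-Nd4, mt-Nd5, mt-Cytb and mt-Co2, the erythroid and heme genes Rhd, Alad, Car2, Cpox and Tmcc2, and Gstm5, Mgst3, Tspan8 and Abcg2. Their adjusted p with edgeR lay between 0.0271 and 0.0356.

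Without a test, genes were counted that differed at least 2-fold the same way in all 3 pairs, with counts of 3 or fewer raised to 3. Of 13636 genes detectable in each pair, 228 (1.67%) were higher in maternal cells and 1379 (10.1%) higher in recipient cells. These shares are the background for the gene groups below. The median log2 fold change of all genes tested, maternal over recipient, was −0.49 in mIUT, −0.29 in pIUT and −0.47 in DT+pIUT, and 0.24 in the uninjected pair. Scaling by DESeq2 size factors shifted these medians by 0.15, 0.31 and 0.13 in the IUT pairs, and scaling by library size alone by 0.33, 0.18 and −0.63. The group medians given below kept their sign under both, except where stated.

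The 12 genes with the steadiest excess in maternal cells were ranked by the fold of the pair where it was smallest. Their folds, and any lack of overlap between the sides, are therefore a description. Cldn13, a claudin gene on chromosome 5 (134943098 to 134944380, GRCm39), had 11.6, 237 and 1010.2 CPM in maternal mIUT, pIUT and DT+pIUT, and 0, 0.974 and 21.8 CPM in recipient cells. Every maternal value lay above the recipient value of its pair, but the ranges over treatments overlapped. The smallest fold was 46.4, in DT+pIUT. Rhd, which encodes the Rh antigen of red cells (chromosome 4, 134591845 to 134623487), had 33.6, 599 and 1636 CPM in maternal against 0.732, 0.354 and 50.8 CPM in recipient cells, with a smallest fold of 32.2. Over the 3 pairs its log2 fold change was 6.65 (SE 1.38), with an adjusted p of 0.882 by edgeR.

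Aqp1, the water channel of red cells, had 15.4, 282 and 399 CPM in maternal against 0, 0.421 and 24.2 CPM in recipient cells. Alad, an enzyme of heme synthesis, had 136, 1368 and 2899 CPM against 4.39, 81.4 and 192 CPM, and was at least 15.1 times as high in maternal cells in each pair. Car2, a carbonic anhydrase of red cells, had 83.8, 2222 and 2701 CPM against 4.57, 34.5 and 237 CPM. All 3 genes were lowest in the mIUT pair on both sides. The glutathione transferase genes Gstm5 and Mgst3 differed by at least 12.7-fold and 12.3-fold. Gstm5 had 111, 204 and 405 CPM in maternal against 0.558, 4.05 and 31.8 CPM in recipient cells. Tspan8, a tetraspanin gene, had 50.2, 26.6 and 209.9 CPM against 0.942, 0.554 and 9.25 CPM. For both genes the lowest maternal value lay above the highest recipient value, which was that of DT+pIUT. Bex4 completed the list with 102, 30.3 and 160.2 CPM in maternal against 0, 2.77 and 11.8 CPM in recipient cells.

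The mitochondrially encoded genes, whose proteins are subunits of the respiratory chain, were all at least 2-fold higher in maternal cells in all 3 pairs (9 of 9, against 1.67% of all genes). Their median log2 fold change was 3.64 in mIUT, 4.11 in pIUT and 3.59 in DT+pIUT. mt-Nd1, a subunit of complex I, had 1551, 1464 and 1299 CPM in maternal against 81.9, 71.7 and 50.4 CPM in recipient cells. The 3 maternal values lay close together. The groups did not overlap, and the share of all genes without overlap is not given here. Its log2 fold change over the pairs was 4.43 (SE 0.65), with an adjusted p of 0.836 by edgeR. mt-Cytb of complex III had 1866, 2466 and 1303 CPM against 140.0, 92.0 and 71.0 CPM. mt-Co1 and mt-Co2 of complex IV differed less in mIUT than in the other pairs. mt-Co1 had 1588, 1983 and 2120.0 CPM in maternal against 473, 149 and 75.2 CPM in recipient cells. DESeq2 called 8 of the 9 as higher in maternal cells, against 1.31% of all genes tested. All genes with an mt- symbol, more than the 9 of the list, together took 1.51%, 1.77% and 1.03% of maternal counts and 0.184%, 0.166% and 0.109% of recipient counts. The uninjected pair was the other way, with 0.330% in maternal and 3.26% in recipient cells, and its median was −3.58.

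Erythroid genes gave the largest number of members higher in maternal cells of the lists examined. The largest share was that of the mitochondrially encoded genes (9 of 9). Of 20 genes in the table, 10 were at least 2-fold higher in all 3 pairs and 0 lower. The median log2 fold change was 2.80, 5.92 and 2.80 in mIUT, pIUT and DT+pIUT, and −0.70 in uninjected pups. In mIUT 5 genes had 3 counts or fewer on both sides, and without them, and with counts raised to 3, the median there was 5.53. Hbb-bs, an adult beta globin, had 7054, 49895 and 86673 CPM in maternal against 78.1, 14878 and 9818 CPM in recipient cells. Hba-a1, an alpha globin, had 6412, 40220.0 and 42782 CPM against 54.9, 12060.0 and 7341 CPM. Both were lowest in mIUT on either side, and the maternal mIUT value lay under the recipient values of pIUT and DT+pIUT. Hba-a1 and Hba-a2, and Hbb-bs and Hbb-bt, are near-identical pairs among which the authors' counting may have split reads. Globin transcripts made up 1.81%, 16.4% and 15.4% of maternal counts and 0.0144%, 4.51% and 3.41% of recipient counts.

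Genes of the red cell precursor behaved less evenly over the pairs. Slc4a1, the anion exchanger of the red cell membrane, had 33.9, 763 and 191 CPM in maternal against 0, 5.38 and 37.2 CPM in recipient cells. Klf1 and Gata1, transcription factors of erythroblasts, were high in maternal pIUT and DT+pIUT and at or near 0 in maternal mIUT. Klf1 had 0, 335 and 552 CPM in maternal against 0.732, 0.221 and 41.4 CPM in recipient cells, and Gata1 had 0.0258, 117 and 403 CPM against 2.20, 7.17 and 36.7 CPM. The receptor gene Epor followed the same pattern, with 0, 43.4 and 186 CPM against 0.314, 1.79 and 17.1 CPM. In maternal mIUT, mature globin transcripts were thus read without those of the erythroblast factors, in the IUT library with the most missing genes.

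Of 10 heme biosynthesis genes, 5 were at least 2-fold higher in maternal cells in all 3 pairs, namely Alas2, Alad, Cpox, Fech and Slc25a37. The median was 0.88 in mIUT, 2.88 in pIUT and 2.89 in DT+pIUT. Alas2, the first enzyme of heme synthesis in red cells, had 151, 1406 and 615 CPM in maternal against 0.523, 479 and 303 CPM in recipient cells. Alas2 is on the erythroid list too, and Alad is among the 12 genes named above.

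**Figure D1:**
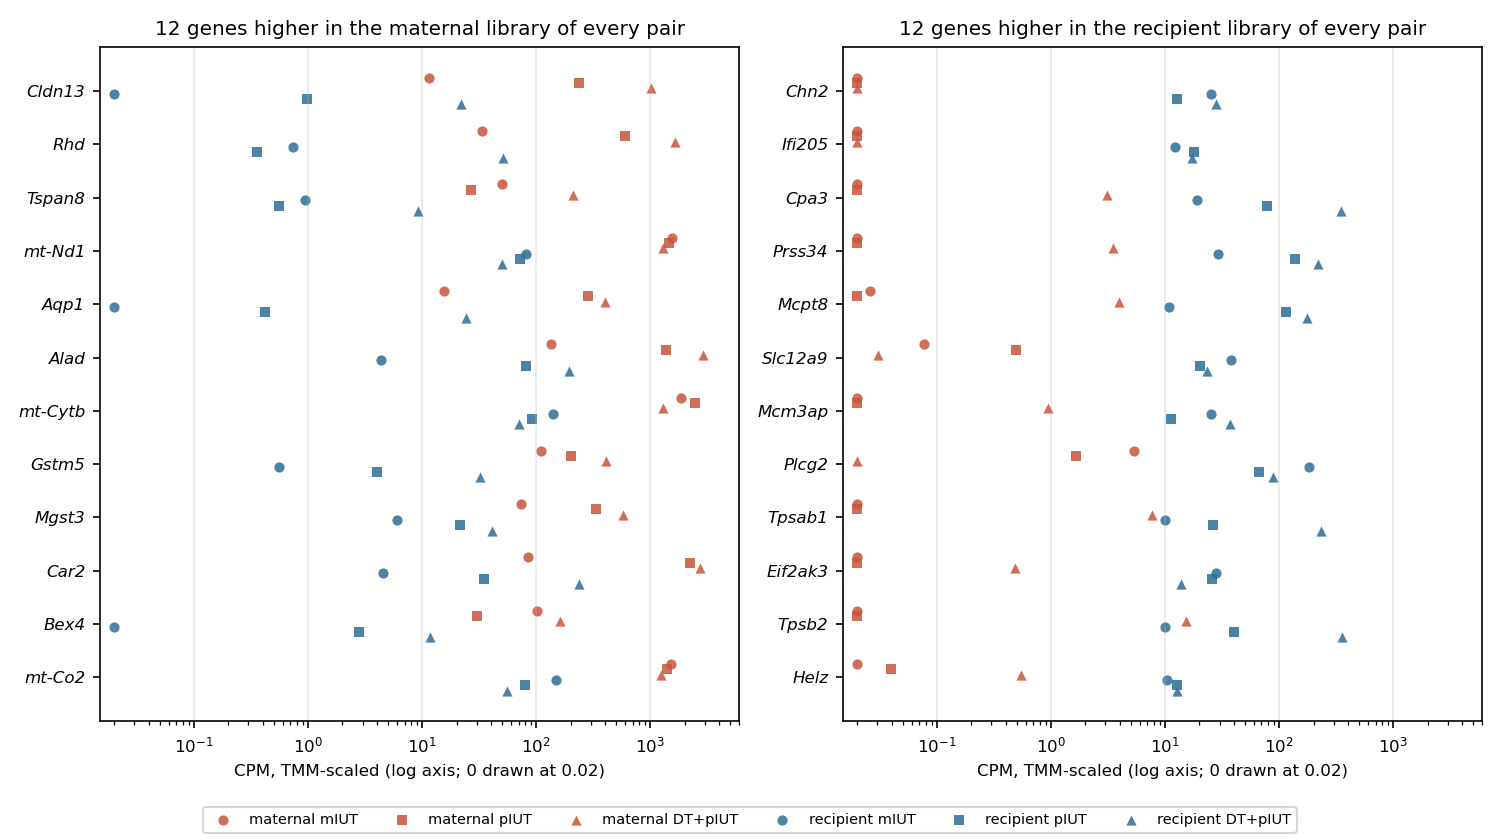
TMM-scaled CPM on a log axis of the 12 genes higher in maternal cells (left) and the 12 higher in recipient cells (right), 1 point per IUT library, with colour for origin and marker shape for treatment; values of 0 are drawn at 0.02. Every maternal point lies right of the recipient point of its own pair on the left side, such as mt-Nd1 at 1299 to 1551 CPM against 50.4 to 81.9 CPM, and left of it on the right side, where most maternal values are 0.

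Genes of mast cells, basophils and eosinophils were the group most often higher in recipient cells. Of 12 genes, 10 were at least 2-fold higher in recipient cells in all 3 pairs, against 10.1% of all genes, and 0 were higher in maternal cells. The median log2 fold change was −10.57 in mIUT, −11.64 in pIUT and −4.78 in DT+pIUT. With counts of 3 or fewer raised to 3, so that genes at 0 stand at their bound, it was −6.92, −7.13 and −4.78. DESeq2 called 9 of them as higher in recipient cells, against 5.97% of all genes tested. Cpa3, the carboxypeptidase of mast cell granules (chromosome 3, 20269774 to 20296362), was at 0, 0 and 3.09 CPM in maternal mIUT, pIUT and DT+pIUT, and at 18.9, 78.4 and 345 CPM in recipient cells. Its smallest fold, in DT+pIUT, was 112. Over the pairs its log2 fold change was −9.90 (SE 1.79), with an adjusted p of 0.882 by edgeR.

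Mcpt8, a basophil protease gene, had 0.0258, 0 and 3.94 CPM in maternal against 10.9, 114 and 175 CPM in recipient cells. Prss34, a serine protease gene of basophils and mast cells, had 0, 0 and 3.48 CPM against 29.0, 137 and 219 CPM. The mast cell tryptase genes Tpsab1 and Tpsb2, which are similar in sequence and may share reads, differed by at least 30.4-fold and 23.6-fold. Tpsb2 had 0, 0 and 15.1 CPM in maternal against 10.1, 39.9 and 357 CPM in recipient cells. Among these genes the maternal and recipient values did not overlap for Cpa3, Mcpt8, Prss34 or Tpsab1, and overlapped for Tpsb2. They were chosen for a large fold in every pair, and the share of all genes without overlap is not given here. Prg2, the major basic protein of eosinophils, was the most abundant member, with 0.0258, 23.7 and 65.4 CPM in maternal against 246, 1190.2 and 1066 CPM in recipient cells. Epx, the eosinophil peroxidase, had 0, 6.15 and 0 CPM against 23.2, 128 and 143 CPM. Fcer1a and Ms4a2, which encode chains of the IgE receptor, were less abundant. Ms4a2 had 0, 0 and 0.757 CPM in maternal against 0.767, 11.1 and 24.3 CPM in recipient cells. In the uninjected pair the list split by cell type. Its median was 3.77, with Cpa3 at 83.4 CPM in maternal cells and 0 in recipient cells, yet its summed level was 269 CPM in maternal against 5796 CPM in recipient cells, of which Prg2 gave 4432 CPM.

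The other genes of the 12 highest in recipient cells belong to no single group. Chn2, which encodes a regulator of Rac GTPases, was at 0 in all 3 maternal libraries and at 25.3, 12.6 and 27.8 CPM in recipient cells. It was at least 213-fold higher there in each pair, taking 3 counts per library as the floor. Ifi205, an interferon-inducible gene, was also at 0 in all 3 maternal libraries, with 12.3, 18.1 and 17.3 CPM in recipient cells, and was at least 158-fold higher in each pair. Plcg2, a phospholipase of B-cell and Fc receptor signalling, had 5.29, 1.66 and 0 CPM in maternal against 184, 66.0 and 88.5 CPM in recipient cells. Slc12a9 had 0.0775, 0.494 and 0.0303 CPM against 37.6, 20.2 and 23.1 CPM. Mcm3ap, Eif2ak3 (a kinase of the endoplasmic reticulum stress response) and Helz (an RNA helicase) completed the list, with smallest folds of 39.4, 28.6 and 23.3, all in DT+pIUT. Each of the 12 except Slc12a9 was at 0 in at least 1 maternal library.

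T-cell genes had lower medians in maternal cells in all 3 pairs. Of 16 genes, 7 were at least 2-fold higher in recipient cells in all 3 pairs (Zap70, Cd28, Tcf7, Bcl11b, Themis and Cd5 among them) and 0 higher in maternal cells. The median log2 fold change was −1.08 in mIUT, −4.89 in pIUT and −2.23 in DT+pIUT. Tcf7, a transcription factor of T-cell development, had 15.3, 41.7 and 7.03 CPM in maternal against 51.5, 706 and 120.3 CPM in recipient cells, with a log2 fold change of −3.35 (SE 0.74) over the pairs and an adjusted p of 0.882 by edgeR. Lck, the kinase at the TCR, had 70.6, 33.0 and 159 CPM against 83.0, 1706 and 435 CPM. Cd3d, a chain of the CD3 complex, had 196, 10.4 and 123 CPM in maternal against 399, 386 and 77.9 CPM in recipient cells, so that it was lower in maternal cells in 2 of 3 pairs. All of these genes except Cd3d were highest in recipient pIUT among the 6 IUT libraries.

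By summed level, the TCR constant region genes were lower in maternal cells in pIUT and DT+pIUT, and near equal in mIUT (261 and 264 CPM). Trbc2 of the beta chain had 115, 43.7 and 224 CPM in maternal against 129, 1599 and 395 CPM in recipient cells. The gamma and delta genes differed more. Trgc1 had 0, 0 and 15.4 CPM against 8.40, 136 and 142 CPM, and Trdc had 0, 0 and 11.8 CPM against 11.5, 152 and 83.0 CPM. Trdc, Trgc1 and Trgc4 were 3 of 7 constant genes that were at least 2-fold higher in recipient cells in every pair. The median of the 7 was −12.35 in pIUT, or −7.84 with counts raised to 3, and −2.91 in DT+pIUT. In mIUT it was −0.17, and 0.16 when scaled by library size alone.

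Cytotoxic granule genes gave opposite signs in the pairs. Gzmb, a granzyme of killer cells, had 648 CPM in maternal against 8.89 CPM in recipient mIUT, 154 and 165 CPM in pIUT, and 4.24 and 212 CPM in DT+pIUT. Gzma had 156 and 34.2 CPM, 138 and 564 CPM, and 82.9 and 649 CPM. The median of 10 cytotoxic granule genes was 2.39 in mIUT, −6.16 in pIUT and −5.37 in DT+pIUT, or 3.20, −4.0004 and −3.58 with counts raised to 3, and 0 of the 10 differed 2-fold the same way in all pairs. The 10 NK cell genes had medians of 0, −2.63 and −5.69 in mIUT, pIUT and DT+pIUT, or −2.66, −2.39 and −5.69 with counts raised to 3 and genes at 3 counts or fewer on both sides left out. Their summed level in mIUT was the other way, with 95.8 CPM in maternal against 12.6 CPM in recipient cells. Of these genes, Ncr1, Klrb1c, Klre1 and Klrd1 were at least 2-fold higher in recipient cells in all 3 pairs. Ncr1, an activating receptor of NK cells, was at 0 in all 3 maternal IUT libraries and at 0.872, 48.4 and 65.8 CPM in recipient cells. Klrk1, which encodes NKG2D, was at 60.1 CPM in maternal and 0 in recipient mIUT, at 26.6 and 31.8 CPM in pIUT, and at 0 and 31.7 CPM in DT+pIUT. In maternal mIUT, granzyme genes were therefore read in the absence of Ncr1 and Klrb1c.

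B-cell genes likewise differed in sign between mIUT and the other pairs. Their median over 14 genes was 2.30 in mIUT, −2.74 in pIUT (−5.50 over 11 genes with counts raised to 3 and genes at 3 counts or fewer on both sides left out) and −3.11 in DT+pIUT. Cd79a, a chain of the BCR complex, had 107 CPM in maternal against 17.8 CPM in recipient mIUT, 8.72 and 49.0 CPM in pIUT, and 9.48 and 56.9 CPM in DT+pIUT. Ms4a1, which encodes CD20, did not follow Cd79a in mIUT, with 0.0258 CPM in maternal against 17.96 CPM in recipient cells. In pIUT it had 0.138 and 61.5 CPM, and in DT+pIUT 4.603 and 35.5 CPM. Ms4a1, Cd22 and Bank1 were the 3 genes that were at least 2-fold higher in recipient cells in all pairs. Among precursor genes, Igll1, the surrogate light chain, had 64.0 CPM in maternal against 1.4995 CPM in recipient mIUT, 6.50 and 0.376 CPM in pIUT, and 3.54 and 35.0 CPM in DT+pIUT. Dntt, the enzyme that adds bases at the joins, was at 0 in maternal mIUT and pIUT and at 8.36 CPM in maternal DT+pIUT, against 3.49, 100.2 and 8.26 CPM in recipient cells. The immunoglobulin constant genes had a median of 0.56 in mIUT, −2.88 in pIUT and −2.002 in DT+pIUT. With the same treatment of low counts it was 1.51 in mIUT and −4.10 in pIUT. Ighm, the IgM heavy chain, had 355, 120.0 and 31.8 CPM in maternal against 108, 462 and 405 CPM in recipient cells.

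MHC class II genes, which present antigen to CD4 T cells, were lower in maternal cells in pIUT and DT+pIUT. The median of 11 genes was −0.68 in mIUT, −7.34 in pIUT (−4.41 with counts raised to 3) and −3.99 in DT+pIUT. In mIUT the summed level differed in sign from the median, with 468 CPM in maternal against 408 CPM in recipient cells. H2-Eb1, H2-Oa, H2-Ob and Ciita, the master regulator of the class, were at least 2-fold higher in recipient cells in all 3 pairs. Cd74, the invariant chain, had 226, 69.6 and 25.0 CPM in maternal against 151, 471 and 596 CPM in recipient cells. In uninjected pups it was 21173 CPM on the maternal and 4881 CPM on the recipient side, above all 6 IUT libraries. Of 10 conventional DC genes, Flt3, Xcr1, Clec9a and Batf3 were at least 2-fold higher in recipient cells in all pairs. The most abundant members, Ccr7 and Fscn1, were not among them. The median was −3.03, −5.33 and −5.35 in mIUT, pIUT and DT+pIUT. The summed level was closer, with 8.01, 121 and 84.0 CPM in maternal against 11.1, 132 and 167 CPM in recipient cells. Flt3, a receptor of DC precursors, had 0, 0 and 0.606 CPM in maternal against 5.47, 9.99 and 29.5 CPM in recipient cells. Zbtb46, a DC transcription factor, went the other way in the pairs where it was read, with 21.0 and 8.70 CPM in pIUT and 76.5 and 7.95 CPM in DT+pIUT, and 0 on both sides in mIUT.

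Of 11 monocyte genes, Ly6c2, Cx3cr1, Lyz2, F13a1 and Ms4a6c were at least 2-fold higher in recipient cells in all 3 pairs, and 0 were higher in maternal cells. The medians were −1.10, −2.44 and −3.45 in mIUT, pIUT and DT+pIUT. Lyz2, lysozyme of myeloid cells, had 16691, 458 and 1488 CPM in maternal against 35300.0, 10418 and 4890.2 CPM in recipient cells. Cd14, a receptor for bacterial lipopolysaccharide, was not of this pattern, with 348, 1012 and 5.24 CPM in maternal against 205, 119.9 and 44.7 CPM in recipient cells. The primary granule gene Mpo, myeloperoxidase of neutrophil precursors, was near equal in mIUT with 1106 CPM in maternal against 998 CPM in recipient cells. It was at 0.0593 and 416 CPM in pIUT and at 210.4 and 10458 CPM in DT+pIUT. The late granule genes had a median of −1.10 in DT+pIUT but a summed level of 10651 CPM in maternal against 8003 CPM in recipient cells. Ngp, one of them, had 50139, 171 and 499.5 CPM in maternal against 76912, 14217 and 1567 CPM in recipient cells. Of the 6 IUT libraries, recipient and maternal mIUT had the highest summed late granule levels (310520 and 185080 CPM), whereas recipient DT+pIUT had the highest primary granule level, at 14659 CPM against 3136 and 2830 CPM in maternal and recipient mIUT. In all, 2 of 12 late granule genes and 1 of 8 primary granule genes were at least 2-fold higher in recipient cells in all pairs, against 10.1% of all genes.

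**Figure D2:**
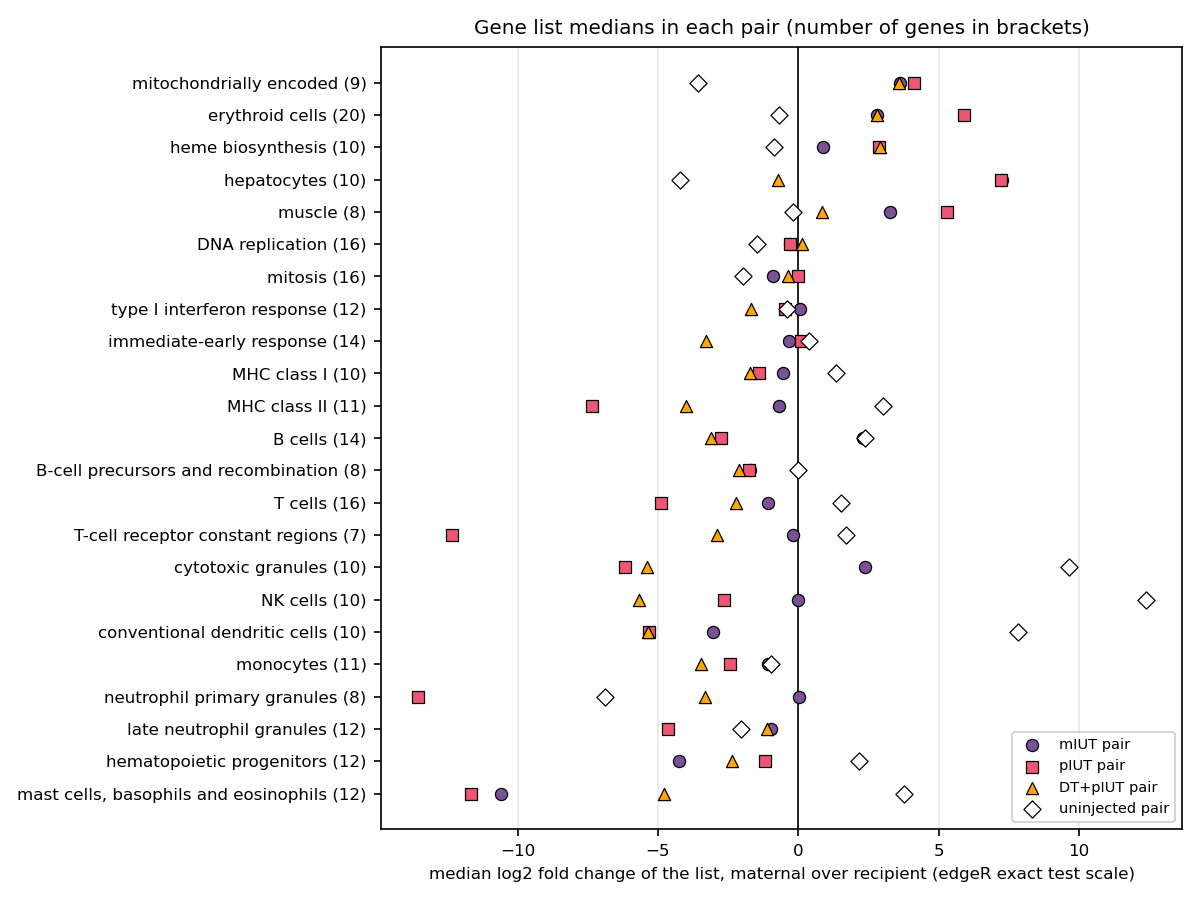
Median log2 fold change, maternal over recipient, of each gene list (rows, number of genes in brackets) in the mIUT, pIUT, DT+pIUT and uninjected pairs (1 point each). The mitochondrially encoded, erythroid and heme lists lie right of 0 in all 3 IUT pairs and left of it in uninjected pups (−3.58, −0.70 and −0.87), whereas the mast cell, T-cell and MHC class II lists lie left of 0 in the IUT pairs and right of it in uninjected pups (3.77, 1.54 and 3.01), where the summed level of the mast cell list is nevertheless higher in recipient cells.

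Genes of tissues other than blood were also read in the maternal libraries. Hepatocyte genes were higher in maternal cells in mIUT and pIUT, with medians of 7.27 and 7.22 (7.17 and 6.79 with counts raised to 3), and not in DT+pIUT, where the median was −0.72. DESeq2 called 8 of 10 as higher in maternal cells, against 1.31% of all genes tested. By contrast 1 of 10, Apoa2, was at least 2-fold higher in all 3 pairs, against 1.67% of all genes. Apoa1, an apolipoprotein gene of liver and gut, had 3824 CPM in maternal against 23.7 CPM in recipient mIUT, 43.5 and 0.930 CPM in pIUT, and 242 and 237 CPM in DT+pIUT. Afp, the fetal plasma protein of the liver, had 207 and 0.105 CPM, 18.2 and 3.96 CPM, and 62.9 and 120.4 CPM. Recipient uninjected cells held 9054 CPM of it. Muscle genes had medians of 3.26 (2.09 with counts raised to 3 and 5 genes left), 5.30 and 0.83. Acta1, skeletal muscle actin, had 0.387, 125 and 366 CPM in maternal against 0, 2.50 and 175 CPM in recipient cells. Krt8, an epithelial keratin, was highest in maternal mIUT among the IUT libraries, at 125 CPM against 0 in recipient mIUT and 6.29 CPM or less in the other 4.

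DNA replication genes were close to equal. The median of 16 DNA replication genes was −0.31 in mIUT, −0.28 in pIUT and 0.13 in DT+pIUT, and each of these signs was turned by one of the scalings. Mcm6, part of the replicative helicase, had 93.7, 625 and 347 CPM in maternal against 98.2, 820.1 and 649 CPM in recipient cells. For 16 mitosis genes the medians were −0.89, −0.02 and −0.35, of which that of pIUT was turned by both scalings. The summed mitosis level was 692 CPM in maternal against 1258 CPM in recipient mIUT. It was higher in maternal cells in pIUT (1816 against 1684 CPM) and DT+pIUT (2638 against 2002 CPM), against the sign of the medians. Of either list, 0 genes were 2-fold apart the same way in all 3 pairs. Type I interferon genes had medians of 0.05, −0.49 and −1.67, and in mIUT a summed level of 765 CPM in maternal against 955 CPM in recipient cells. Among 14 immediate-early genes the median was −0.32 in mIUT, or 0.01 when scaled by library size alone, 0.09 in pIUT and −3.27 in DT+pIUT. Fos had 761, 545 and 62.7 CPM in maternal against 815, 348 and 680.3 CPM in recipient cells.

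**Figure D3:**
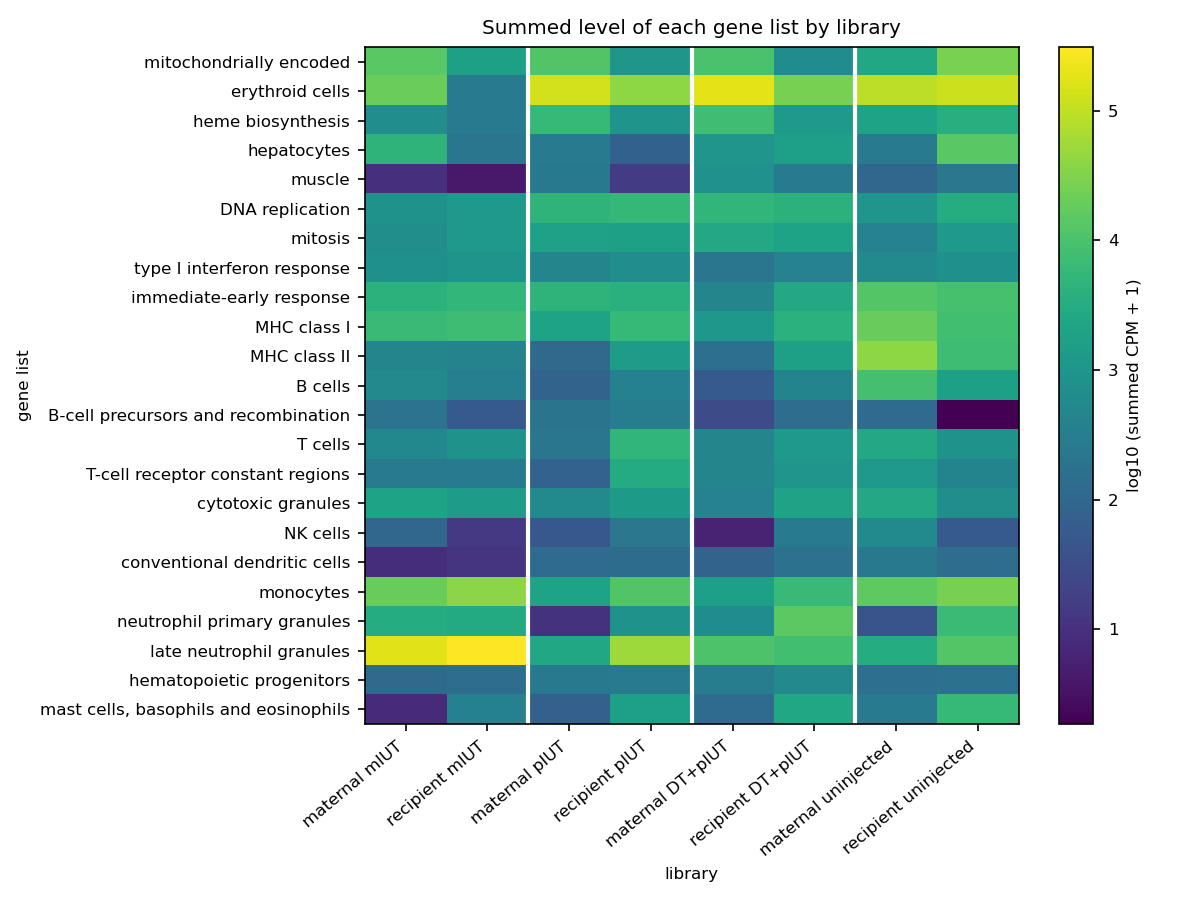
Summed level of each gene list (rows) in each of the 8 libraries (columns), as log10 of the summed TMM-scaled CPM plus 1. The mitochondrial list is brighter in the 3 maternal than in the 3 recipient IUT libraries (9968 to 13994 CPM against 635 to 1684 CPM), and the mast cell, basophil and eosinophil list is darker (7.26 to 125 CPM against 361 to 2365 CPM).

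Whether the contrast of origin after IUT differed from that in uninjected pups was tested as an interaction over all 8 libraries, whose 2 residual degrees of freedom come from the IUT pairs alone. With edgeR, 0 of 14956 genes (0%) were called, and 190 and 1524 genes had an unadjusted p under 0.05 with the maternal side higher and lower after IUT. All 3 genes of lowest p with the maternal side higher after IUT were mitochondrial. mt-Nd5 had 306, 416 and 50.7 CPM in maternal against 26.8, 20.6 and 8.83 CPM in recipient IUT libraries, and 37.3 and 1156 CPM in uninjected maternal and recipient cells. Its interaction was 8.41 on the log2 scale (SE 1.44, adjusted p 0.202 by edgeR), and those of mt-Nd4 and mt-Nd1 were 7.88 and 8.73. In the other direction the genes were Map2k1, Bckdha and Rabif, at 0.289, 0.0207 and 0 CPM in recipient uninjected cells and at 34.4 CPM or more in the other 7 libraries. Those 3 genes thus differ through 1 library, the one with the most missing genes. All 12 genes named above as higher in maternal cells after IUT were higher in recipient cells of the uninjected pair, Cldn13 at 134 and 178 CPM in maternal and recipient cells and Rhd at 251 and 397 CPM.

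Receptor chains were compared in the clonotype tables of the same libraries. A clonotype is a CDR3, the stretch where V, D and J meet, with its V and J segment, and its clone count gives the reads that MiXCR placed in it. The tables of maternal and recipient cells held 49 and 666 clonotypes in mIUT, 32 and 5488 in pIUT, and 552 and 3064 in DT+pIUT. The median clone count was 168 in maternal and 5 in recipient mIUT, 67 and 7 in pIUT, and 9 and 4 in DT+pIUT. Maternal mIUT and pIUT thus had few clonotypes with a high median of reads, although 16.3% and 6.25% of them had a single read. The reads carry no molecular identifiers, so the intervals below cover counting error only.

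TCR chains made up 44.9% of clonotypes in maternal mIUT (95% Wilson interval 31.9 to 58.7%) and 65.8% in recipient mIUT (62.1 to 69.3%). In pIUT the shares were 53.1% (36.5 to 69.1%) and 89.2% (88.3 to 90.0%), and in DT+pIUT 85.1% (81.9 to 87.9%) and 58.4% (56.6 to 60.1%). The intervals did not overlap in any pair, but the direction differed. Recipient cells had the larger TCR share in mIUT and pIUT, and maternal cells had it in DT+pIUT by 26.8 percentage points. The mean difference was −10.0 points (SD 32.8, 3 pairs), with p = 0.75 by an exact two-sided sign-flip permutation test, whose smallest possible p with 3 pairs is 0.25. By chain, TRB was 28.6%, 28.1% and 77.4% of maternal and 50.6%, 74.7% and 40.1% of recipient clonotypes. IGH was 24.5%, 21.9% and 3.99% of maternal and 12.2%, 4.14% and 20.9% of recipient clonotypes. No TRD clonotype was read in maternal mIUT or pIUT and no TRG in maternal pIUT, where Trdc and Trgc1 were also at 0 in the gene counts. In maternal mIUT, however, Trgc1 was at 0 CPM while 6 clonotypes (12.2%) were TRG, against 3.15% in recipient mIUT. By reads the order was the other way, as TRG took 0.370% of maternal and 3.59% of recipient clone counts in mIUT. Trgc2, another gamma constant gene, was at 6.77 CPM in maternal and 5.41 CPM in recipient mIUT. The upper Wilson limits of a share of 0 were 7.27% of 49 clonotypes and 10.7% of 32.

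**Figure D4:**
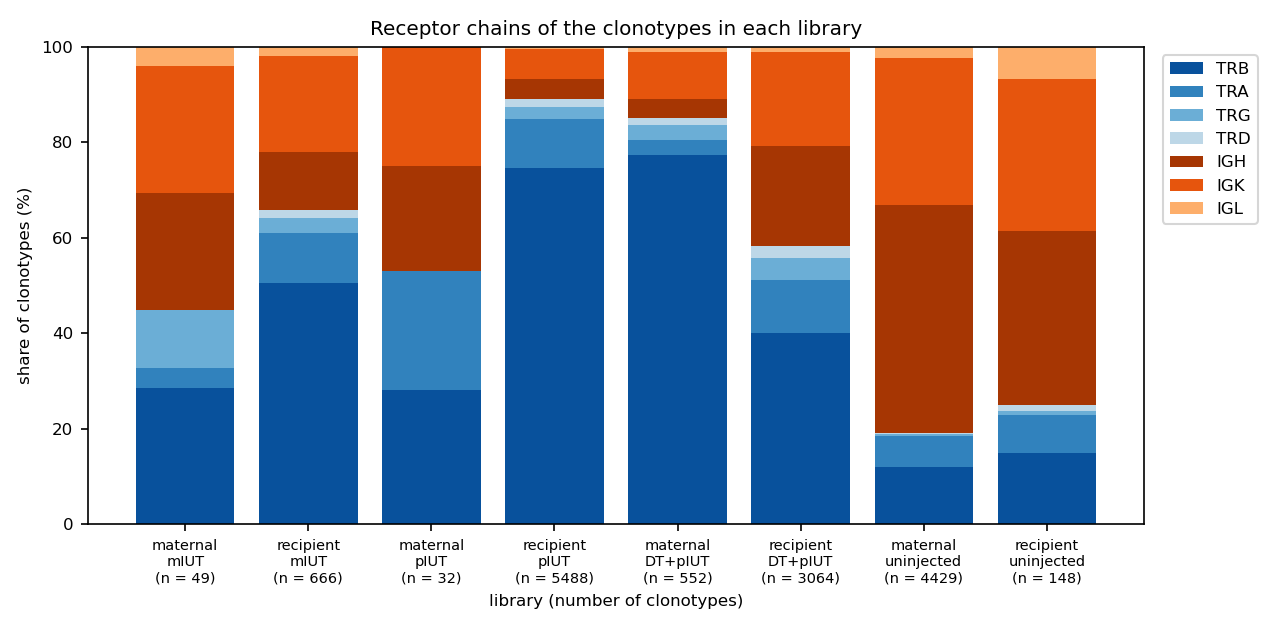
Share of clonotypes (%) by receptor chain in each library, with TCR chains in blue and BCR chains in orange and the number of clonotypes under each bar. TCR chains take 44.9% and 53.1% of maternal mIUT and pIUT against 65.8% and 89.2% of their recipient libraries, and 85.1% of maternal against 58.4% of recipient DT+pIUT.

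Of the 8 TRA clonotypes of maternal pIUT, 2 joined TRAV11D or TRAV11N, as the segments of best score, to TRAJ18, with 64 reads in all, and 1 of them had a single read. The invariant chain of NKT cells joins a TRAV11 segment to TRAJ18, and the CDR3 of these clonotypes was not compared with it. No TRAV11 segment was joined to TRAJ18 in 2 and 17 TRA clonotypes of maternal mIUT and DT+pIUT or in 69, 561 and 341 of the recipient libraries. This was looked for after other values of the tables were known, and no test was made.

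IGH joins held few added bases on both sides in the IUT pairs. Counting bases outside V, D and J at both junctions, IGH clonotypes had a mean of 1.08 in maternal and 0.889 in recipient mIUT, 0.143 and 1.09 in pIUT, and 0.773 and 1.33 in DT+pIUT. Uninjected maternal and recipient cells had 6.22 and 7.24. All 6 IUT libraries thus lay under both uninjected ones, the maternal libraries as well as the recipient ones. No added base was found in 58.3%, 85.7% and 63.6% of maternal and 61.7%, 55.9% and 48.4% of recipient IGH clonotypes, against 4.34% and 3.70% in uninjected cells. The maternal numbers rest on 12, 7 and 22 IGH clonotypes. TRB joins did not follow IGH. No added base was found in 14.3%, 11.1% and 41.2% of maternal and 59.6%, 38.6% and 49.5% of recipient TRB clonotypes, and in 11.99% and 22.7% of those of uninjected maternal and recipient cells. Maternal mIUT and pIUT, with 14 and 9 TRB clonotypes, thus lay close to maternal uninjected cells in this share. The 6 TRG clonotypes of maternal mIUT, which had 31 reads in all, held a mean of 10.2 added bases (SD 0.753) against 0.762 in recipient mIUT. Of these 6, 5 used TRGV3 and 2 were productive, and whether they stem from separate joins was not tested. The 8 TRA clonotypes of maternal pIUT held a mean of 4.12 bases between V and J (SD 3.56), against 4.80 (SD 12.8) in recipient pIUT. With bases assigned to a D segment left out, the means were 4.12 and 2.45. A D segment was assigned in 106 of 561 recipient and 0 of 8 maternal TRA clonotypes.

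For TRB, the bases from the end of V to the start of D, or of J where no D was assigned, were 2.21 in maternal and 0.932 in recipient mIUT, 1.44 and 1.43 in pIUT, and 1.33 and 1.21 in DT+pIUT. The mean difference was 0.476 bases (SD 0.700) and was above 0 in 3 of 3 pairs, with p = 0.25 by the exact two-sided permutation test, the smallest it allows. Counted at both junctions, the difference was 0.804 bases, with the same exact permutation p of 0.25. Weighted by clone count, the difference was 0.201 bases with an exact permutation p of 0.75, so that the pairs no longer had 1 direction. TRB CDR3 length differed by 0.867 bases (SD 0.971), also in 3 of 3 pairs and with an exact p of 0.25. In IGH the same measures differed by −0.440 bases (SD 0.684, exact permutation p = 0.5) and −0.301 bases (SD 2.09, exact permutation p = 1.0). Weighted by clone count, IGH CDR3 length differed by −3.40 bases, with an exact permutation p of 0.25. In IGK, a light chain with no D segment, the CDR3 was 0.224 bases shorter on average in maternal cells (difference −0.224, SD 0.420, exact permutation p = 0.5). None of these measures could pass 0.05 with 3 pairs.

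Clonotypes held by both cells of a pair had the same CDR3 nucleotides, V and J. There were 3 in mIUT, which is 6.25% of 48 different maternal and 0.455% of 659 recipient clonotypes. In pIUT there were 4 (12.9% of 31 and 0.0732% of 5463), and in DT+pIUT 45 (8.23% of 547 and 1.48% of 3032). Libraries of different treatments come from different pups and give the reference. Maternal mIUT shared 3 clonotypes with recipient pIUT and 6 with recipient DT+pIUT. Maternal pIUT shared 2 with recipient mIUT and 4 with recipient DT+pIUT. Maternal DT+pIUT shared 23 with recipient mIUT (4.205% of its list) and 50 with recipient pIUT (9.14%). For each maternal library, at least 1 recipient library of other pups thus held as many of its clonotypes as its own recipient library, or more. The recipient lists differ in length, and no test was made.

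All 7 clonotypes shared within the mIUT and pIUT pairs were light chains with no base between V and J, and each was also read in at least 1 library outside its pair. They are printed to show how little sequence the joins hold beyond the segments. Here and below, bases between the end of V and the start of J are in capitals, of which these have none.
mIUT IGKV1-122-IGKJ2: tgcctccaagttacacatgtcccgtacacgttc
mIUT IGKV8-19-IGKJ4: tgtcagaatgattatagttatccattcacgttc
mIUT IGLV1-IGLJ1: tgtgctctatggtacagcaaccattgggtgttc
pIUT IGKV5-39-IGKJ5: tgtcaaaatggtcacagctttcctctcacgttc
pIUT IGKV11-125-IGKJ2: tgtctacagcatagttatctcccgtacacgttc
pIUT IGKV8-30-IGKJ5: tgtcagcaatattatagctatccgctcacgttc
pIUT IGKV1-135-IGKJ1: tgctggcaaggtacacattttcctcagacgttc

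Their clone counts differed between the sides. The IGLV1-IGLJ1 chain had 489 reads in maternal and 30 in recipient mIUT, and was read in 7 of the 8 libraries, with 147 reads in recipient pIUT, 21 and 102 in maternal and recipient DT+pIUT, and 3962 and 367 in uninjected cells. The IGKV1-135-IGKJ1 chain had 313 reads in maternal and 61 in recipient pIUT, and 35 and 27 in the other recipient IUT libraries. IGKV5-39-IGKJ5, with 60 and 9 reads in pIUT, was read elsewhere only in maternal uninjected cells, with 23.

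Of the 45 clonotypes shared in DT+pIUT, 24 were IGK, 5 IGL, 8 TRB, 7 TRG and 1 TRD, and none was IGH or TRA. In 34 of them no base lay between V and J. In all, 35 were also read in another library, and 10 were not. Those 10, which are 6 TRB, 2 TRG and 2 IGK chains, were read in both DT+pIUT libraries and in no other library. How many clonotypes maternal DT+pIUT shared only with a recipient library of other pups is not given here. It shared 14 TRB clonotypes with recipient pIUT, against 8 with its own recipient library. The 10 are printed in order of their maternal reads.
IGKV5-45-IGKJ2: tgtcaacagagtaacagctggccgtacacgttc
TRBV5-TRBJ1-4: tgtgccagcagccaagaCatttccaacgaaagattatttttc
TRGV4-TRGJ1: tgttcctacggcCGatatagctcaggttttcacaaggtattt
TRBV15-TRBJ2-7: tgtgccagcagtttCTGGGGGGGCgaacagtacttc
TRBV16-TRBJ2-7: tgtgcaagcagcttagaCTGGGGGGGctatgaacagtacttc
IGKV8-27-IGKJ2: tgtcatcaatacctctcctacacgttc
TRBV5-TRBJ1-3: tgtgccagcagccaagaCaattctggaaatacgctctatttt
TRBV5-TRBJ2-7: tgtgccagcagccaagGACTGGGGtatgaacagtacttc
TRGV7-TRGJ1: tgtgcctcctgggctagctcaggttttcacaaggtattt
TRBV16-TRBJ2-7, short: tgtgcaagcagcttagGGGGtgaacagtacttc

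The 6 TRB chains held 1, 10, 9, 1, 8 and 4 bases between V and J in the order printed, and where there was more than 1 these were mostly G, as in the TRBD segments. Both chains with 1 base there joined TRBV5 to a TRBJ1 segment. Their reads were few. TRBV5-TRBJ1-4 had 16 maternal and 9 recipient reads, TRBV15-TRBJ2-7 had 13 and 3, and the short TRBV16-TRBJ2-7 had 2 and 7. The largest of the 10 in maternal cells was IGKV5-45-IGKJ2, with 19 reads and 5 in recipient cells. With so few reads, absence from another table is not absence from its pups.

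Among the 35 clonotypes that other libraries also held were chains of the gamma delta T cells that arise in early waves of the fetal thymus. They show that a TCR chain alone does not mark a pool of pups.
TRDV4-TRDJ2: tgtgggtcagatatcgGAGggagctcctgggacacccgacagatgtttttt
TRGV5-TRGJ1: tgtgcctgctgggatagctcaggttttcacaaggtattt
TRGV4-TRGJ1: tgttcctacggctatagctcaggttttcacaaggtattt
The TRDV4-TRDJ2 chain had 13 maternal and 482 recipient reads in DT+pIUT, and 12 and 464 reads in recipient mIUT and pIUT, where no maternal read was found. It was also in both uninjected libraries, with 121 maternal and 400 recipient reads. TRGV5-TRGJ1 had 23 maternal and 175 recipient reads in DT+pIUT, and TRGV4-TRGJ1 had 6 and 82. All 3 were thus more frequent in the recipient library, where Trdc and Trgc1 were also higher.

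**Figure D5:**
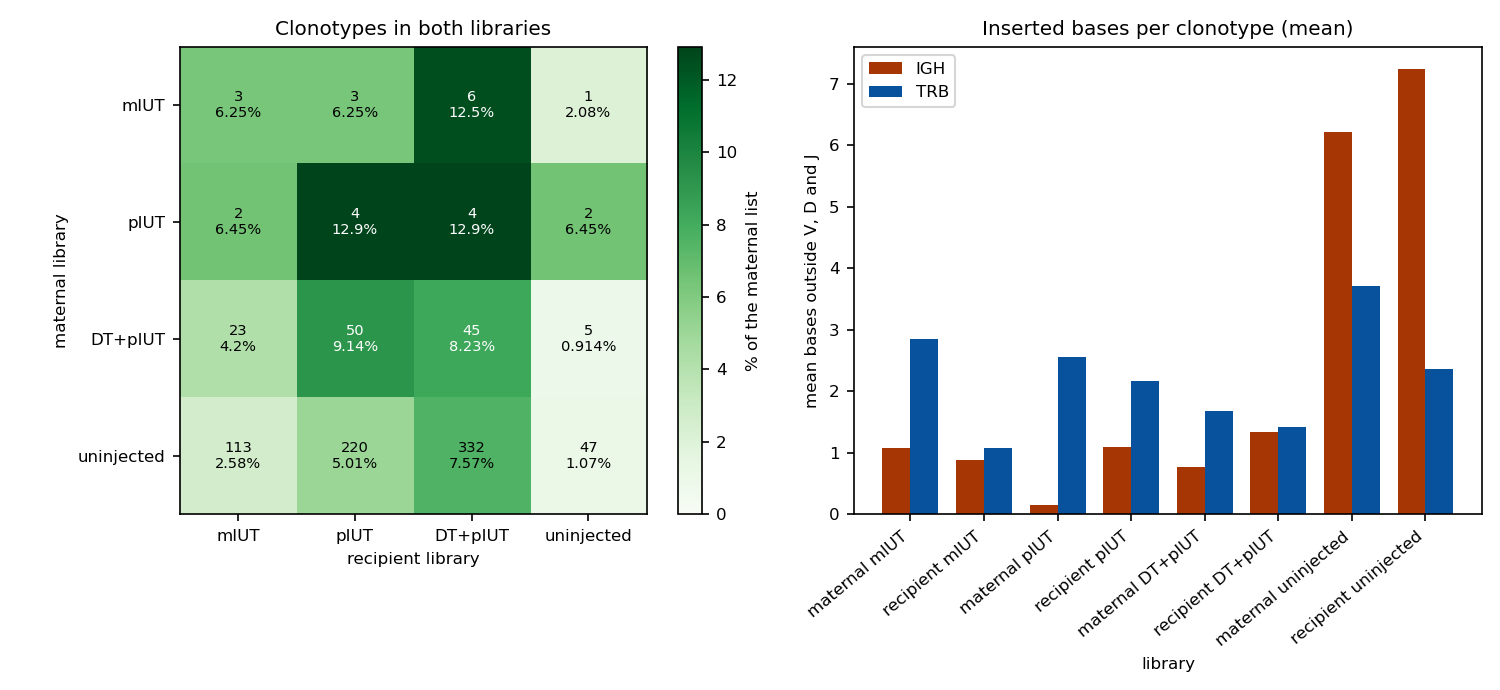
Left, the number of clonotypes in both a maternal (rows) and a recipient library (columns), coloured by its percentage of the maternal list; right, mean inserted bases per clonotype (outside V, D and J) in IGH and TRB for each library. Maternal DT+pIUT shares 45 clonotypes with its own recipient library and 50 with recipient pIUT, and IGH means are 0.143 to 1.33 bases in the 6 IUT libraries against 6.22 and 7.24 in uninjected cells.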

How the data were processed

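The authors deposited a gene table of estimated counts from the nf-core pipeline (salmon, GRCm39, GENCODE), without normalization. The study's methods name another counter. The submitters' processing notes also name bcl2fastq and StringTie. The authors also deposited MiXCR clonotype tables with a clone count (reads of a clonotype) and a clone fraction (that count over the table's total), in which all chains stand together. The fractions were used only as the counts behind them.

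All 8 columns of the table belong to a sample, and 0 columns stayed unused. Values were rounded to whole counts before any test. Of 52784 gene identifiers, 97.99% were matched to symbols and GRCm39 positions in a GENCODE annotation. edgeR 4.0.16 in R 4.3.3 gave TMM-scaled CPM, the quasi-likelihood test with treatment as a block (genes with at least 10 counts in 3 libraries, Benjamini-Hochberg adjustment) and pair fold changes by the exact test, for which the dispersion was set to 0.4 and the prior count was left at the default. Folds for counting genes used counts raised to 3, the floor per library. With 1 pooled library per origin and treatment, p-values measure the spread between pairs of different treatments. Receptor measures were tested by exact sign changes over the 3 pairs, two-sided. The fits were tested on simulated data.

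The genes named were the 12 of each direction with the largest fold in their smallest pair (same direction in all 3 pairs, at least 10 CPM in the 3 libraries of the higher origin, without predicted genes and receptor segments), up to 4 of the most abundant members of each list, label checks and the 3 genes of lowest interaction p in each direction. Other genes of a list (those counted as 2-fold, Epor, Klf1, Gata1, Slc4a1, Epx, Ms4a2) were chosen after their values were seen. The members, lists and tests were chosen with earlier results of these data known. The list genes not in the table were not analysed here, and some list genes are not reported here by name.

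Alternatives were DESeq2 1.42.0 (size factors and Wald test), limma 3.58.1 (voom), library size scaling, other count filters, a fixed dispersion, no block, each pair left out, other folds and floors, and other matches and subsets of clonotypes. Added bases at both junctions were added after seeing the data. Python 3.11.15, pandas 2.3.3, numpy 2.4.6, scipy 1.17.1 and matplotlib 3.10.9 were used.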

Additional observations from a re-analysis of the deposited data

Results flagged for a closer look

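For 13 gene lists, the median log2 fold change (maternal over recipient) had 1 sign in all 3 IUT pairs and the other sign in the uninjected pair. For each list below the uninjected value is given, and the difference of list medians was not tested. Gene by gene, 0 of 14956 genes passed edgeR's interaction test. The lists higher in recipient cells after IUT had uninjected medians of 1.54 for T cells, 7.83 for conventional DC, 6.86 for plasmacytoid DC, 3.01 for MHC class II, 1.35 for MHC class I, 3.77 for mast cells, basophils and eosinophils, 6.92 for megakaryocytes and platelets, 2.16 for hematopoietic progenitors and 1.72 for TCR constant regions. With counts raised to 3 and genes at 3 counts or fewer on both sides left out, the signs held but several values moved. They were then 6.43 for conventional DC, 3.22 for plasmacytoid DC and 7.18 for mast cells, basophils and eosinophils. Megakaryocytes and platelets had 5.28, progenitors 3.48 and TCR constant regions 1.97. In 3 of these lists the summed level in uninjected pups was higher in recipient cells, against the median, with 126 CPM in maternal against 515 CPM in recipient cells for megakaryocytes and platelets, 148 and 168 CPM for progenitors, and 269 and 5796 CPM for mast cells, basophils and eosinophils. For TCR constant regions the mIUT sign was turned by library size scaling. Those higher in maternal cells after IUT had −0.70 for erythroid cells, −0.87 for heme biosynthesis, −0.17 for muscle and −3.58 for mitochondrially encoded genes. The recipient uninjected library is also the one with the most missing genes (9.51%), and their part in these values was not tested.

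In other lists 1 IUT pair had the opposite sign to the other 2, and these differences were not tested either. The mIUT pair stood alone with 3.28 for regulatory T cells and checkpoints, 2.39 for cytotoxic granules, 2.30 for B cells, 0.016 for neutrophil primary granules, 0.051 for type I interferon genes, 1.10 for Xist and 0.56 for immunoglobulin constant regions. For Xist this rests on −0.046 in DT+pIUT, which was 0.082 with DESeq2 size factors. The DT+pIUT pair stood alone with 0.13 for DNA replication, −0.72 for hepatocytes and −0.92 for imprinted fetal growth genes, and in its share of TCR chains, where maternal cells exceeded recipient cells by 26.8 percentage points. For immediate-early genes the pIUT pair stood alone with 0.090. With library size scaling the DNA replication median of DT+pIUT turned to −0.50 and the immediate-early median of mIUT to 0.010.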

How the results depend on the processing

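The number of genes called depended on the model of spread and on the filter. Against 0 in either direction, DESeq2's Wald test called 187 genes as higher in maternal and 850 as higher in recipient cells, a dispersion fixed at 0.4 called 634 and 2596, and a filter of at least 10 counts in all 6 libraries, which tests fewer genes, called 15 and 1. The count stayed at 0 with DESeq2 size factors, library size scaling, limma-voom, no filter, no replicate block and each pair left out. Treatments paired the libraries by design, since both cells of a pair came from the same pups. Genes 2-fold apart the same way (228 and 1379) numbered 79 and 627 at 4-fold, and between 809 and 922 and between 2634 and 3134 when a pair was left out, where agreement of only 2 pairs is asked. By CDR3 amino acids, 79 clonotypes in place of 45 were shared in DT+pIUT. With counts of 3 or fewer raised to 3, the mean of the 3 pair medians moved to −2.45 for B-cell precursors and to 2.38 for imprinted fetal growth genes. With productive clonotypes alone, the IGK differences turned, to 0.071 bases for length and −0.016 for inserted bases, and the cause was not tested. Weighting by clone count moved the IGH length difference from −0.301 to −3.40 bases and the TRB inserted bases from 0.476 to 0.201. Of the other list medians, 112 stayed within the spread between pairs, and all 120 values of named genes kept their direction. The interaction gave 0 calls in each of the 8 alternative counts, which says nothing of the stability of single genes. The receptor shares of maternal mIUT and pIUT rest on 49 and 32 clonotypes. Library totals were alike on both sides, and why the maternal libraries held fewer genes and clonotypes was not tested.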

Other observations

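The chemokine and cytokine lists had medians of 0 and −1.05 in pIUT, 0 and 0 in mIUT, and −4.92 and −4.28 in DT+pIUT. With counts raised to 3 and genes at 3 counts or fewer on both sides left out, these were −0.16 and −1.23, 0.32 and 0.89, and −3.39 and −2.33. Their summed levels were higher in maternal cells in pIUT (1068 against 325 CPM and 1524 against 202 CPM) and mIUT (247 against 118 CPM and 233 against 105 CPM). In DT+pIUT they were lower (38.9 against 378 CPM and 39.2 against 116 CPM). Of the genes of both lists, 0 were at least 2-fold higher in maternal cells in all 3 pairs. Of their members, Ccl3, Ccl4, Il1b and Tnf, chosen after their values were seen, were highest in maternal pIUT among the 8 libraries. Ccl3, a chemokine of activated myeloid cells and lymphocytes, had 728 CPM in maternal against 58.2 CPM in recipient pIUT, 44.7 and 2.58 CPM in mIUT, and 0.575 and 31.0 CPM in DT+pIUT. Ccl4, its close relative, had 241 and 55.3 CPM, 96.1 and 1.64 CPM, and 3.57 and 37.6 CPM in the same order. Il1b and Tnf, inflammatory cytokine genes, had 1149 and 343 CPM in maternal pIUT, 122 and 58.2 CPM in maternal mIUT, and 5.18 and 0.212 CPM in maternal DT+pIUT. Recipient cells held 64.6, 59.9 and 8.99 CPM of Il1b in pIUT, mIUT and DT+pIUT. With 1 library for each, no difference between treatments was tested.

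Genes of fetal growth were read in maternal cells too. Cdkn1c, an imprinted inhibitor of the cell cycle, had 704 CPM in maternal against 11.9 CPM in recipient mIUT, 41.7 and 37.6 CPM in pIUT, and 7.87 and 13.9 CPM in DT+pIUT. H19 had 232 and 3.28 CPM, 31.7 and 10.2 CPM, and 21.0 and 42.3 CPM. The embryonic globin genes Hba-x and Hbb-y had 31.6 and 8.66 CPM in maternal pIUT and at most 1.18 CPM in each of the other 7 libraries.

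In the uninjected pair 47 clonotypes were shared, which is 1.07% of the maternal and 31.8% of the recipient list.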
